A study of Homo sapiens with 12 samples.

Results

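The 33 genes described here encode core parts of the spliceosome: the PRPF proteins, the Sm-like (LSM) proteins, and proteins of the Prp19 complex and its neighbours. Their transcripts are themselves spliced, and the question asked of the data is how the inclusion of their exons and the retention of their introns differed after knockdown of SFSWAP, a splicing regulator. All skipped exon and retained intron events assigned to these genes were taken, provided that the libraries of 1 or more of the comparisons made by the authors averaged 10 reads or more at the event. This gave 430 of 145406 events, of which 391 were skipped exons (of 134118) and 39 were retained introns (of 11288). For 9 of the exons or introns the event tables differed in the outer ends of the neighbouring exons, so that each stands as a pair of events. At least 1 event came from 28 of the 33 genes, and CWC25, LSM14A, LSM2, PRPF31 and PRPF8 had none.

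PolyA RNA came from 12 libraries of 293A-TOA cells, a human embryonic kidney cell line, in 4 groups of 3 biological replicates. The siSFSWAP group received 40 nM siRNA against SFSWAP and the siNT group non-target siRNA. The siSFSWAP/siUPF1 group received siRNA against both SFSWAP and UPF1 (30 nM), and the siNT/siUPF1 group non-target siRNA together with the UPF1 siRNA. SFSWAP knockdown lasted 5 days, whereas the paper's protocol for other knockdowns has 3 days of growth once the cells were split. Which of these applied to the UPF1 siRNA in these groups is not stated separately. All groups were given 1 µM TG, an inhibitor of the enzyme that removes O-GlcNAc from proteins, for the last 6 hr, so every value below is from TG-treated cells. The tables list the 3 libraries of a group in a fixed order without their replicate numbers, and a library is named here by its place in that list.

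The spliceosome is built anew on each intron. U1 and U2 snRNPs mark the splice sites, the U4/U6.U5 tri-snRNP joins, U4 leaves, and the Prp19 complex binds as the catalytic centre forms around U6, whose end is held by a ring of LSM proteins. LSM proteins also act in the cytoplasm in mRNA decapping and storage, and each gene is placed under a single role below. Transcripts that gain an exon with an early stop codon are typical targets of nonsense-mediated decay (NMD), for which the RNA helicase UPF1 is essential, and many genes of splicing factors carry such exons.

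The sequences below are those of exons and the intron that met the threshold in at least 1 comparison and lie within the coding region, shown because their splice sites and stop codons define the alternative forms. Each exon is written 5′ to 3′ on the strand of the gene (hg38), with 20 intron bases before it and 6 after it. Capitals mark the AG of each 3′ splice site used (a pair of AGs where a longer form exists), the GT of the 5′ splice site, and the first stop codon in the reading frame that enters from the exon before, where the shorter form has one.
PRPF6, exon 18 (92 nt, with a 127 nt form), chr20:64028423-64028575, plus strand: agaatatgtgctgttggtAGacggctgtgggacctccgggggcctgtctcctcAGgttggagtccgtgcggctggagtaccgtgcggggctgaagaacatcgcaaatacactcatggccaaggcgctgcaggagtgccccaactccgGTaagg
EFTUD2, exon 25 (95 nt, with a 126 nt form), chr17:44853290-44853441, minus strand: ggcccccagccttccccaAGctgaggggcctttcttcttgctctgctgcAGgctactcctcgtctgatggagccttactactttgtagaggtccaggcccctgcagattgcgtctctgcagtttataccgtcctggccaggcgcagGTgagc
PRPF3, exon 5 (84 nt, with an 89 nt form), chr1:150332659-150332773, plus strand: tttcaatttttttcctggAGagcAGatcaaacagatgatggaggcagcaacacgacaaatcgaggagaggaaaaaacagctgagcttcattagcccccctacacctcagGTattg
LSM4, exon of 105 nt with a 140 nt form, chr19:18310104-18310269, minus strand: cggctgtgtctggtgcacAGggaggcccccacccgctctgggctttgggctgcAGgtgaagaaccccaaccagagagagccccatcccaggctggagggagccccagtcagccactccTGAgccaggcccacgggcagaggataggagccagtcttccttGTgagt
LSM7, exon of 171 nt, chr19:2324736-2324932, minus strand: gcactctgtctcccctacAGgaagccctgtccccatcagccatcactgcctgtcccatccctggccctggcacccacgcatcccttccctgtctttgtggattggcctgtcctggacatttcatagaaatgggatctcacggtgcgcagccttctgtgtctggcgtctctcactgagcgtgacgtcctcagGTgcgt
LSM7, intron 1 (83 nt, whole intron), chr19:2328478-2328560, minus strand: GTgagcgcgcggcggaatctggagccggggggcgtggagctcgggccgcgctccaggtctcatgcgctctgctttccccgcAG
LSM14B, exon of 69 nt, chr20:62132336-62132430, plus strand: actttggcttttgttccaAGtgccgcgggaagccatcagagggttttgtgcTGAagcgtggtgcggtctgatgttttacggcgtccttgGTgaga
PRPF38B, exon of 53 nt, chr1:108693570-108693648, plus strand: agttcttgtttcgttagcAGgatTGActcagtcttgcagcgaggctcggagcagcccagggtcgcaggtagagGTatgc
CDC5L, exon of 203 nt, chr6:44432333-44432561, plus strand: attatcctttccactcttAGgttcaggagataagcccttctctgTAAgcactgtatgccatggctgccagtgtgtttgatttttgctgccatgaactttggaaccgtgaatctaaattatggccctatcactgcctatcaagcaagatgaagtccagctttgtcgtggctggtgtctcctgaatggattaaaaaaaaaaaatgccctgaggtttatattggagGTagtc
BUD31, exon of 114 nt, chr7:99419142-99419281, plus strand: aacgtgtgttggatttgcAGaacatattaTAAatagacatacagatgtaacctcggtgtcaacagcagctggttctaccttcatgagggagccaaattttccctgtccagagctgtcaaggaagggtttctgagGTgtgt
BUD31, exon of 217 nt with a 227 nt form, chr7:99415020-99415272, plus strand: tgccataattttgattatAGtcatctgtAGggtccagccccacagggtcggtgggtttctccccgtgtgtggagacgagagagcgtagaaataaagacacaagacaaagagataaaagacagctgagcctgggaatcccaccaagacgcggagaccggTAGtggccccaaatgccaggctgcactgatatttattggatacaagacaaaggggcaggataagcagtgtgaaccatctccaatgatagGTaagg

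Exon numbers are those of the MANE transcript in GENCODE 44. PRPF6 exon 18, EFTUD2 exon 25 and PRPF3 exon 5 are exons of that transcript, and the longer form of each uses an AG further upstream. The other exons printed lie in introns of the MANE transcript, LSM4 between exons 3 and 4, LSM7 between exons 2 and 3, LSM14B between exons 7 and 8, PRPF38B between exons 1 and 2, and CDC5L between exons 14 and 15. BUD31 holds its 217 nt exon between exons 3 and 4 and its 114 nt exon between exons 5 and 6. The LSM4 105 nt exon belongs to a GENCODE transcript of the NMD class and is also on the list of putative decoy exons (exons within retained introns) that the study added to its annotation.

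Reads at skipped exon events summed to 25938092 to 40637076 per library, and reads at retained intron events to 1812794 to 3030493, where a read counts at every event it fits. As a check of the labels, SFSWAP had 12.9 ± 2.63 RPM (relative to all reads at skipped exon events) at its 7 such events in siSFSWAP cells and 32.0 ± 1.06 in siNT cells (SD, n = 3 each). The corresponding values were 14.7 ± 5.25 in siSFSWAP/siUPF1 cells and 35.7 ± 5.26 in siNT/siUPF1 cells, and no library with the SFSWAP siRNA reached one without it. UPF1 had 78.0 ± 22.6 RPM at its 15 events in siSFSWAP/siUPF1 cells and 57.2 ± 16.1 in siNT/siUPF1 cells, against 205 ± 17.3 in siSFSWAP cells and 174 ± 31.5 in siNT cells. In bulk samples a smaller number of cells with a transcript and less of it per cell cannot be told apart.

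Knockdown of SFSWAP changed 10 of the 108 skipped exon events of these genes that could be tested, 8 with higher and 2 with lower inclusion in siSFSWAP than in siNT cells. An event was tested if it had a mean of 10 reads per library and 10 reads for and 10 against inclusion in all. A change stands for an adjusted p of at most 0.05 in a quasi-binomial regression of inclusion against skipping reads, with Benjamini-Hochberg adjustment over all 33839 events tested. Over all of these events 12.0% were called, 7.76% with higher and 4.21% with lower inclusion, so the share of the core spliceosome genes (9.26%) lay near that of all events. The 10 events come from 7 genes, each with 1 exon or 1 set of overlapping exon forms, namely PRPF6, EFTUD2, PRPF3, LSM4, LSM6, LSM7 and BUD31. Levels in siSFSWAP cells did not overlap those in siNT cells at 15 member events with higher and 4 with lower levels, beside 26.0% of all events in either direction. The median difference in inclusion level was 0.224 percentage points over the member events and 0.424 over all events. These calls depended on the moderation of the dispersion across events: with the dispersion of each event alone 0 of the 108 member events were called, and 0 of all events. Log2 odds tested by limma (0.5 added to the reads) gave 1239 calls over all events and 0 among the members, and with 1 added the 127 nt form of the PRPF6 exon was the only member called.

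In the UPF1 knockdown background 10 of 93 tested skipped exon events were called between siSFSWAP/siUPF1 and siNT/siUPF1 cells, with higher inclusion at 3 and lower inclusion at 7. The LSM14B call (higher) and the PRPF3 calls (lower) passed the read filter only through siSFSWAP/siUPF1 cells. Over all 34006 events of that comparison 7.52% were called, 4.05% with higher and 3.47% with lower inclusion. The 93 events had a median difference of -0.155 percentage points, against 0.113 over all events, and 16 of them did not overlap between groups (21.6% of all events). By role, the U4/U6.U5 tri-snRNP genes had 4 events with higher and 2 with lower inclusion of 27 tested between siSFSWAP and siNT cells, and the U6 LSM ring had 3 higher and 0 lower of 9. None was called among the 15 events of PRPF4B, PRPF38A and PRPF38B, the 10 of SART3, the 3 of PRPF18, the 6 of PRPF39 and PRPF40B, the 12 of the cytoplasmic LSM genes or the 18 of the Prp19 complex. After UPF1 knockdown the tri-snRNP genes had 0 higher and 2 lower of 21 events, the LSM ring 2 higher and 0 lower of 9, and the genes that bind the Prp19 complex or the intron 0 higher and 3 lower of 12.

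**Figure D1:**
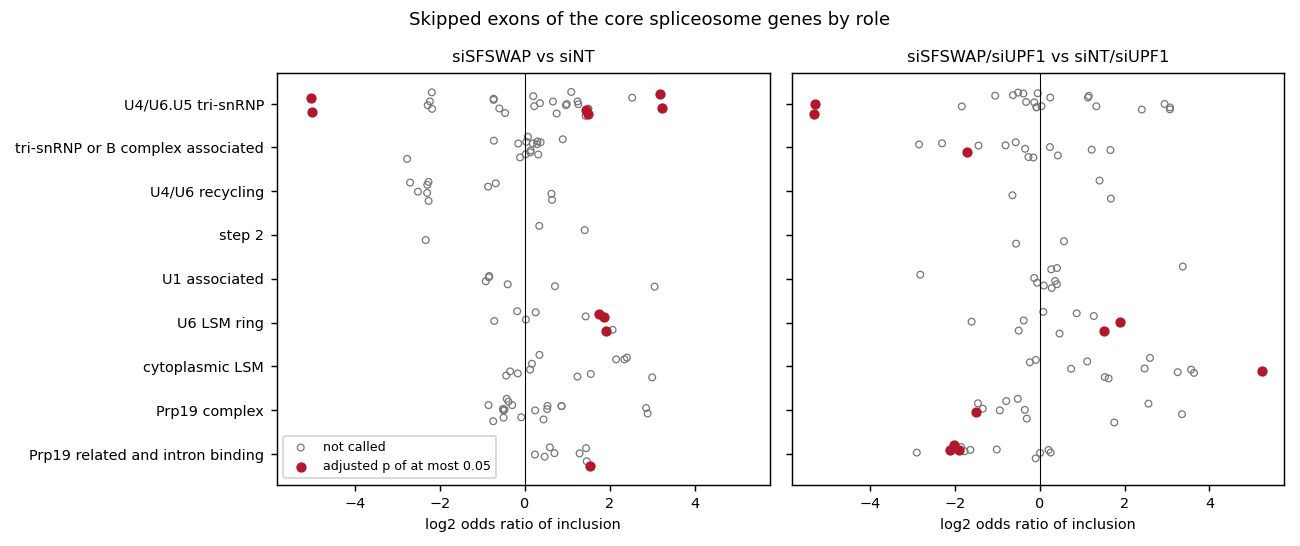
Log2 odds ratio of inclusion (x axis; above 0 is higher after SFSWAP knockdown) of each skipped exon event tested in the core spliceosome genes, by role, for siSFSWAP vs siNT (left, 108 events) and siSFSWAP/siUPF1 vs siNT/siUPF1 (right, 93 events). Filled points have an adjusted p of at most 0.05 (10 in each panel), open points do not, and the vertical scatter within a role has no meaning.

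Among the tri-snRNP genes the clearest change was in PRPF6, whose protein bridges U5 and U4/U6. Inclusion of exon 18 (chr20:64028478-64028569, 92 nt, within the coding region) was 99.6%, 99.8% and 98.8% in siSFSWAP cells, against 90.7%, 98.2% and 93.9% in siNT cells. Inclusion level is the share of the form with the exon after division of the reads of each form by its effective length. No siNT library reached a siSFSWAP library, and the difference rests on 8 skipping reads in siSFSWAP cells and 61 in siNT cells. The log2 odds ratio was 3.19 ± 0.85 (SE), with an adjusted p of 0.000373. Since 92 nt is not a multiple of 3, skipping of the exon shifts the reading frame. The 127 nt form, which begins 35 nt upstream and is not in GENCODE, gave 98.6% ± 1.16 in siSFSWAP cells and 87.9% ± 7.28 in siNT cells (SD, n = 3 each), but it shares its skipping reads and most of its exon with the 92 nt form. Its reading frame meets a TGA across the junction with exon 17. With UPF1 also knocked down, exon 18 was included at 99.6% ± 0.111 in siSFSWAP/siUPF1 cells and 97.6% ± 2.1 in siNT/siUPF1 cells, groups that overlapped (adjusted p = 0.147). Both PRPF6 calls held with any 1 library left out, with adjusted p values of at most 0.0248, and PRPF6 was the only gene of which that was true.

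EFTUD2 encodes the GTPase of the U5 snRNP, which drives remodelling of the spliceosome. Its exon 25 (chr17:44853296-44853390, 95 nt, coding) was included at 93.0%, 92.9% and 89.6% in siSFSWAP cells and at 76.8%, 88.5% and 74.5% in siNT cells. The groups did not overlap, and the log2 odds ratio was 1.48 ± 0.43 (adjusted p = 0.00805). The UPF1 knockdown background gave levels of 90.6%, 92.0% and 87.1% in siSFSWAP/siUPF1 cells, against 81.6%, 66.2% and 88.5% in siNT/siUPF1 cells. Here 1 siNT/siUPF1 library lay among the siSFSWAP/siUPF1 libraries, and the difference of 11.1 percentage points did not pass the threshold (adjusted p = 0.0509). The 126 nt form of the exon, which begins 31 nt upstream, had 76.9% ± 5.25 in siSFSWAP cells and 56.2% ± 9.24 in siNT cells (adjusted p = 0.0157). It shares its skipping reads and most of its exon with the 95 nt form, so this level does not measure the longer form alone. Skipping of the 95 nt exon shifts the frame. The 126 nt form is a multiple of 3 in length, but in place of the 95 nt exon its 31 added bases also shift the frame. With 1 library left out the call of the 95 nt exon held in 3 of 6 fits, and without the siNT library listed 3rd its adjusted p was 0.084.

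PRPF3, a U4/U6 protein, was the only gene of the 33 with an exon called lower between siSFSWAP and siNT cells. Reads that skipped exon 5 (chr1:150332684-150332767, 84 nt, coding, a multiple of 3) numbered 0, 8 and 6 in siSFSWAP cells and 0 in each siNT library, beside 540 to 896 inclusion reads per library. Skipping was thus seen in 2 of 3 siSFSWAP libraries only, and the groups overlapped (adjusted p = 0.037). With UPF1 knockdown the skipping reads were 10, 5 and 0 in siSFSWAP/siUPF1 cells and again 0 in every siNT/siUPF1 library (adjusted p = 0.0469). Inclusion averaged 98.6% ± 1.34 in siSFSWAP cells and 98.2% ± 1.99 in siSFSWAP/siUPF1 cells, against 100% in all libraries without the SFSWAP siRNA. In both backgrounds the exon reached the 10 skipping reads needed for a test only through libraries with the SFSWAP siRNA. A call could therefore only be one of lower inclusion. The 89 nt form starts 5 nt upstream, contains a TGA from base 16 on, and shares its skipping reads and most of its exon with the 84 nt form. With 1 library left out the call of either form between siSFSWAP and siNT cells held in 1 of 4 fits (adjusted p of up to 0.108), and that after UPF1 knockdown in 1 of 5 (adjusted p of up to 0.131).

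The U6 LSM ring had 3 genes with exons whose inclusion was higher after SFSWAP knockdown. In LSM4 the 105 nt exon (chr19:18310110-18310214), with a TGA from base 64 on, was counted with 23, 13 and 28 inclusion reads in siSFSWAP cells and with 1, 6 and 11 in siNT cells, beside 1201 to 1661 skipping reads. The inclusion levels of 0.689%, 0.422% and 1.12% in siSFSWAP cells all exceeded those of 0.0353%, 0.175% and 0.362% in siNT cells. The log2 odds ratio was 1.87 ± 0.6 (adjusted p = 0.0142), and the call held in 3 of 6 fits with a library left out (adjusted p of up to 0.136). After UPF1 knockdown the levels were 0.945%, 1.3% and 1.05% in siSFSWAP/siUPF1 cells and 0.162%, 0.634% and 0.309% in siNT/siUPF1 cells, again without overlap (log2 odds ratio 1.51 ± 0.51, adjusted p = 0.0401, and up to 0.197 with a library left out). The 140 nt form, which begins 35 nt upstream and holds a TGA from base 37 on, was included at 0.807% ± 0.0938 in siSFSWAP/siUPF1 cells and 0.216% ± 0.103 in siNT/siUPF1 cells (adjusted p = 0.0197). Between siSFSWAP and siNT cells that form overlapped, at 0.444% ± 0.444 in siSFSWAP and 0.146% ± 0.145 in siNT cells (adjusted p = 0.153). It shares its skipping reads and most of its exon with the 105 nt form. Among the 33 genes the LSM4 105 nt exon and PRPF3 exon 5 with its 89 nt form were the ones called in both backgrounds. These comparisons share no libraries, but PRPF3 exon 5 could be tested in each only through skipping in the group with the SFSWAP siRNA.

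LSM7 moved at an exon and at an intron. The 171 nt exon (chr19:2324742-2324912), a multiple of 3 with no stop codon in frame and absent from GENCODE, was included at 1.33%, 0.881% and 0.827% in siSFSWAP cells, against 0.162%, 0.311% and 0.301% in siNT cells. These levels rest on 41, 24 and 26 inclusion reads in siSFSWAP cells and 3, 8 and 7 in siNT cells, beside 678 to 1143 skipping reads. The groups were apart, and the log2 odds ratio was 1.91 ± 0.56 (adjusted p = 0.00478), although without the siSFSWAP library listed 1st the adjusted p was 0.0579. UPF1 knockdown gave levels of 1.13% ± 0.476 in siSFSWAP/siUPF1 cells and 0.454% ± 0.371 in siNT/siUPF1 cells, which did not overlap either but were not called (adjusted p = 0.0916).

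Intron 1 of LSM7 (chr19:2328478-2328560, 83 nt) was retained at 28.7%, 12.6% and 23.3% in siSFSWAP cells and at 39.2%, 32.7% and 50.5% in siNT cells. Retention fell in siSFSWAP cells without overlap, with a log2 odds ratio of -1.43 ± 0.47 (adjusted p = 0.0449). It was the only intron called among the 26 tested in the core spliceosome genes, beside 10.4% of all 5845 introns, 9.1% of them with lower retention. The UPF1 knockdown background gave 25.1%, 20.8% and 14.2% in siSFSWAP/siUPF1 cells and 31.2%, 53.1% and 29.5% in siNT/siUPF1 cells, also apart (adjusted p = 0.192). Without 1 library the adjusted p of the call in siSFSWAP cells ranged up to 0.302, the value without the siSFSWAP library listed 2nd.

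In LSM6 a 270 nt exon between exons 1 and 2 (chr4:146176168-146176437), outside the coding region, had levels of 4.61%, 4.59% and 8.98% in siSFSWAP cells, against 2.12%, 2.44% and 1.03% in siNT cells. The log2 odds ratio was 1.74 ± 0.64 (adjusted p = 0.0386), and the call held in 1 of 6 fits with a library left out, with adjusted p values of up to 0.206. With UPF1 knocked down the levels were 11.5%, 3.31% and 3.5% in siSFSWAP/siUPF1 cells and 10.1%, 6.4% and 5.47% in siNT/siUPF1 cells, which overlapped (adjusted p = 0.725). The siNT/siUPF1 cells thus lay above the siNT cells in every library, with an adjusted p of 0.157.

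**Figure D2:**
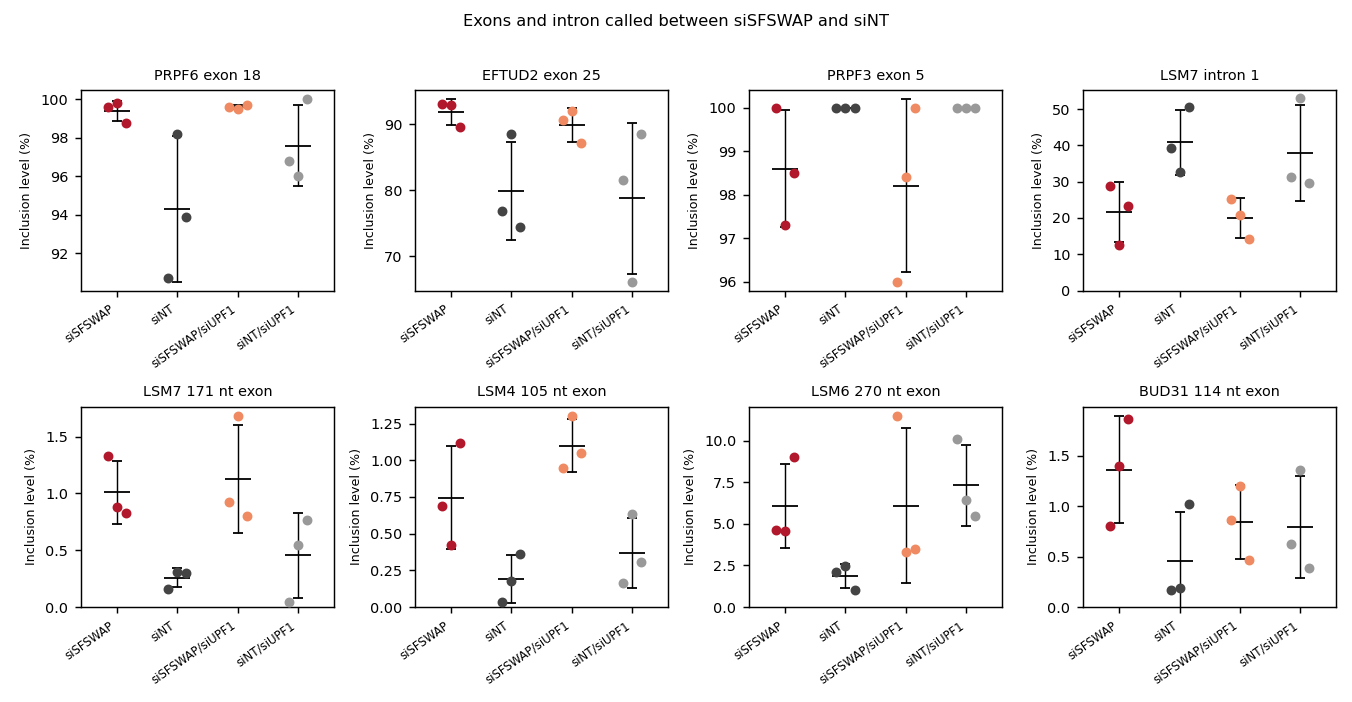
Inclusion level in percent (y axis; scales differ, and the 3 panels for PRPF6, EFTUD2 and PRPF3 do not start at 0) of the exons and the intron called between siSFSWAP and siNT cells, in all 4 groups. Points are libraries in the order of the tables, and bars the mean ± SD (n = 3). PRPF6 exon 18 lies at 98.8% or above in all siSFSWAP libraries and at 98.2% or below in all siNT libraries, and LSM7 intron 1 is lower in both groups with the SFSWAP siRNA.

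BUD31, a protein of the activated spliceosome, had its 114 nt exon (chr7:99419162-99419275, with a TAA from base 10 on) at 0.809%, 1.4% and 1.87% in siSFSWAP cells and 0.17%, 0.19% and 1.02% in siNT cells. The siNT library listed 3rd lay above the lowest siSFSWAP library, and the adjusted p of 0.0491 was 0.00326 without it and up to 0.26 without another library. With UPF1 knocked down the exon was at 0.841% ± 0.366 in siSFSWAP/siUPF1 cells and 0.792% ± 0.505 in siNT/siUPF1 cells (adjusted p = 0.998).

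The calls between siSFSWAP/siUPF1 and siNT/siUPF1 cells moved with single libraries. Without the siSFSWAP/siUPF1 library listed 1st 0 of the 10 were left, and without those listed 2nd and 3rd the member calls numbered 3 and 2, all with lower inclusion. Without the siNT/siUPF1 library listed 2nd 2 were left, both with higher inclusion (the LSM4 forms). The PRPF3 calls were then lost too, although that library has no skipping reads of exon 5 and the log2 odds ratio stayed at -4.68, against -5.32 with all libraries. At the BUD31 217 nt exon (chr7:99415050-99415266, TAG from base 129 on) inclusion reads numbered 4, 16 and 4 in siSFSWAP/siUPF1 cells, against 24, 103 and 13 in siNT/siUPF1 cells. The siNT/siUPF1 library listed 2nd held 103 of the 140 siNT/siUPF1 reads, and the levels were 0.35% ± 0.306 in siSFSWAP/siUPF1 cells and 1.56% ± 1.74 in siNT/siUPF1 cells. The log2 odds ratio of -2.1 ± 0.66 (adjusted p = 0.00921) became -0.71 without that library (adjusted p = 0.607). The 227 nt form, which shares its skipping reads and most of its exon with the 217 nt form, behaved in the same way (adjusted p = 0.0188, and 0.648 without that library). Of 50-base tiles set every 25 bases along each printed exon, 1 of 8 in the BUD31 227 nt form matched the genome at other places too, 13 in all, whereas every tile of the other printed exons matched once. How reads from such places were counted was not tested.

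In CDC5L, which encodes a core protein of the Prp19 complex, the 203 nt exon (chr6:44432353-44432555, TAA from base 25 on) was at 0.769%, 0.673% and 0.594% in siSFSWAP/siUPF1 cells and at 1.13%, 3.34% and 1.54% in siNT/siUPF1 cells. All siNT/siUPF1 libraries were above all siSFSWAP/siUPF1 libraries (log2 odds ratio -1.49 ± 0.47, adjusted p = 0.0218, and 0.318 without the siNT/siUPF1 library listed 2nd). Without UPF1 knockdown the levels were 0.809% ± 0.105 in siSFSWAP cells and 0.507% ± 0.393 in siNT cells, which overlapped (adjusted p = 0.574).

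The PRPF38B 53 nt exon (chr1:108693590-108693642), known from coding transcripts in GENCODE and with a TGA from base 4 on in the MANE frame, was at 7.32%, 9.11% and 2.88% in siSFSWAP/siUPF1 cells and at 5.82%, 27.4% and 14.8% in siNT/siUPF1 cells. The groups overlapped, and the adjusted p of 0.0198 became 0.527 with the siNT/siUPF1 library listed 2nd left out. The exon stood at 5.06% ± 2.56 in siSFSWAP cells and 5.39% ± 2.62 in siNT cells (adjusted p = 0.926). The LSM14B 69 nt exon (chr20:62132356-62132424, TGA from base 32 on) went the other way, with 1, 9 and 7 inclusion reads in siSFSWAP/siUPF1 cells and 0 in each siNT/siUPF1 library, beside 134 to 206 skipping reads (adjusted p = 0.0409). This exon reached the 10 inclusion reads needed for a test only through siSFSWAP/siUPF1 cells, so it could only be called as higher. It had 1, 5 and 4 reads in siSFSWAP cells and 0, 1 and 0 in siNT cells (adjusted p = 0.311), and its call was lost in each of 5 fits with a library left out (adjusted p of up to 0.119). LSM14B belongs to a family of RNA-binding proteins of cytoplasmic granules.

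Over all exons the siNT/siUPF1 library listed 2nd had the highest level of its group at 37.6% of the 33598 events in which the 3 libraries differed. The library listed 3rd had it at 38.4%. That share takes no account of the size of a difference. Without the library listed 2nd 27911 skipped exon events were tested in this background, against 30738 and 30887 without those listed 1st and 3rd. Among member exons with a stop codon in frame the library listed 2nd was the highest at 28 of 47, and among all member exons at 38 of 90. These member counts were made after the values had been seen, with no such count over all exons with a stop codon. The part of this library in the results was not tested beyond the fits without it.

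**Figure D3:**
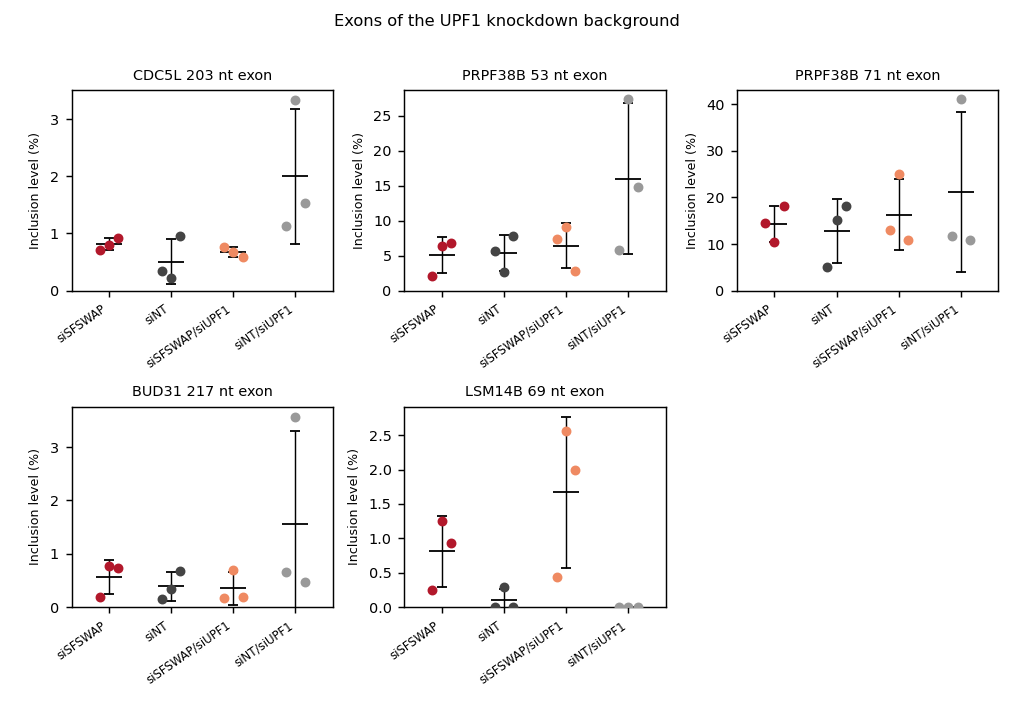
Inclusion level in percent (y axis, from 0; scales differ) of 5 exons that concern the UPF1 knockdown background, in all 4 groups, with points for libraries and bars for the mean ± SD (n = 3). At the exons of CDC5L, PRPF38B and BUD31 the highest point is the siNT/siUPF1 library listed 2nd, as at the PRPF38B 71 nt exon with 41.1%, whereas the LSM14B 69 nt exon is at 0 in all siNT/siUPF1 libraries.

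The effect of UPF1 knockdown itself was compared between siNT/siUPF1 and siNT cells, at events listed alike in both tables. It was called at 1 of 70 skipped exon events of these genes, the PRPF38B 53 nt exon, with 16.0% ± 10.8 in siNT/siUPF1 cells and 5.39% ± 2.62 in siNT cells. Over all 28261 events 1.17% were called, 0.778% with higher inclusion. The log2 odds ratio was 1.94 ± 0.5 (adjusted p = 0.022), and 1.02 without the siNT/siUPF1 library listed 2nd (adjusted p = 0.53). The CDC5L 203 nt exon, at 2.0% ± 1.18 in siNT/siUPF1 and 0.507% ± 0.393 in siNT cells, did not overlap but was not called (adjusted p = 0.0603). This comparison shares its siNT/siUPF1 libraries with that of the UPF1 knockdown background, so a high siNT/siUPF1 library enters both.

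Between siSFSWAP/siUPF1 and siSFSWAP cells 0 of 70 skipped exon events were called, with 3 at an unadjusted p under 0.05 and none by limma, beside 0.0816% of all events. The effect of SFSWAP knockdown was not shown to depend on the UPF1 background at any member exon: the difference of log2 odds ratios was called at 0 of 108 events (7 at an unadjusted p under 0.05, none by limma), beside 0.00771% of all 38928 events. At the LSM4 105 nt exon that difference was -0.36 ± 0.76 and at PRPF6 exon 18 it was -0.78 ± 1.49, intervals that leave large differences possible. For introns 0 of 19 were called in the UPF1 knockdown background (3.57% of all introns), 0 of 10 between siNT/siUPF1 and siNT cells (0.0659%), 0 of 10 between siSFSWAP/siUPF1 and siSFSWAP cells (0.166%) and 0 of 10 for the difference (0.0291%), with 2, 1, 0 and 1 at an unadjusted p under 0.05 and none by limma.

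Besides the LSM4 exon, 6 exons of these genes are on the study's list of putative decoy exons. None of them was called in any comparison in which it had enough reads to be tested. In PRPF39, which associates with U1, the 163 nt exon (chr14:45096596-45096758) was at 19.4% ± 11.3 in siSFSWAP and 26.5% ± 1.74 in siNT cells (adjusted p = 0.267), and at 24.5% ± 4.87 in siSFSWAP/siUPF1 and 23.8% ± 9.32 in siNT/siUPF1 cells. Its 69 nt exon (chr14:45096424-45096492) rested on at most 42 reads per library, with 46.0% ± 8.54 in siSFSWAP and 58.6% ± 14.4 in siNT cells (adjusted p = 0.87). Both belong to GENCODE transcripts of the NMD class. The PRPF38B 71 nt exon (chr1:108697947-108698017) was at 14.3% ± 3.84 in siSFSWAP and 12.8% ± 6.89 in siNT cells (adjusted p = 0.898). The PRPF38B 54 nt exon (chr1:108697810-108697863) had no more than 6 inclusion reads in any library and too few for a test between siSFSWAP and siNT cells. The LSM14B 117 nt exon (chr20:62127585-62127701), which has no stop in frame, was at 65.5% ± 21.3 in siSFSWAP and 62.3% ± 11.0 in siNT cells (adjusted p = 0.945). The EFTUD2 128 nt exon (chr17:44853906-44854033) had no more than 3 inclusion reads in any library. It was tested only for the difference of the SFSWAP effects between the UPF1 backgrounds.

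The other member genes are given by the event with the most reads. PRPF19, the ubiquitin ligase of its complex, included exon 3 at 99.3% ± 0.28 in siSFSWAP and 99.0% ± 0.289 in siNT cells (adjusted p = 0.714). SART1, which recruits the tri-snRNP, included exon 12 at 99.5% ± 0.557 in siSFSWAP and 98.7% ± 0.675 in siNT cells (adjusted p = 0.449), and at 99.7% ± 0.468 in siSFSWAP/siUPF1 and 96.9% ± 2.62 in siNT/siUPF1 cells (adjusted p = 0.0835). ISY1 exon 9 was at 99.3% ± 0.145 in siSFSWAP and 98.4% ± 0.613 in siNT cells (adjusted p = 0.361), and exon 14 of PLRG1, a WD-repeat protein of the Prp19 complex, at 94.6% ± 1.28 in siSFSWAP and 96.8% ± 3.65 in siNT cells (adjusted p = 0.607). Levels of ISY1 exon 9 did not overlap between siSFSWAP and siNT cells, whereas those of the PRPF19, SART1 and PLRG1 exons did. All of these exons of nearly full inclusion differed by less than their test could separate.

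SART3, which recycles U4/U6, included exon 6 at 97.5% ± 2.48 in siSFSWAP and 99.7% ± 0.56 in siNT cells (adjusted p = 0.361). PRPF18, a factor of the second catalytic step, included exon 7 at 94.0% ± 6.67 in siSFSWAP and 92.6% ± 5.35 in siNT cells (adjusted p = 0.864). LSM1, a subunit of the cytoplasmic ring that promotes decapping, included exon 3 at 85.5% ± 4.52 in siSFSWAP and 88.9% ± 3.62 in siNT cells (adjusted p = 0.602). The LSM12 241 nt exon was at 60.4% ± 7.17 in siSFSWAP and 56.8% ± 26.8 in siNT cells (adjusted p = 0.94). None of these passed the test, and the spread of LSM12 among siNT libraries was the widest of them.

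The PRPF4B 82 nt exon, in the gene of a kinase of spliceosomal proteins, was at 0.915% ± 0.807 in siSFSWAP and 0.881% ± 0.416 in siNT cells (adjusted p = 0.993), and the LSM8 213 nt exon at 0.458% ± 0.384 in siSFSWAP and 0.444% ± 0.24 in siNT cells (adjusted p = 0.989). Intron 18 of CWC22, a protein that helps place the exon junction complex, was retained at 1.07% ± 0.471 in siSFSWAP and 0.89% ± 1.01 in siNT cells (adjusted p = 0.989). Intron 7 of PRPF38A was retained at 8.22% ± 0.743 in siSFSWAP and 11.5% ± 0.898 in siNT cells, without overlap and not called (adjusted p = 0.115). The LSM5 28 nt exon 3, in its event with the most reads, which was tested only in the UPF1 knockdown background, was at 91.9% ± 3.35 in siSFSWAP/siUPF1 and 86.4% ± 2.82 in siNT/siUPF1 cells (adjusted p = 0.199), and the AQR 155 nt exon was at 0.58% ± 1.01 in siSFSWAP/siUPF1 and 1.12% ± 0.436 in siNT/siUPF1 cells (adjusted p = 0.738). PRPF40B exon 13, with no more than 32 reads in a library, was at 96.1% ± 6.79 in siSFSWAP/siUPF1 and 57.4% ± 32.5 in siNT/siUPF1 cells (adjusted p = 0.172). LSM3 and PRPF4 had events but none with enough reads of both forms to test.

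The exons called were of several kinds. Of the 8 events with higher inclusion in siSFSWAP cells, 2 were MANE exons, 3 were in any GENCODE transcript, 3 had a stop codon in frame and 4 were included at under 5% in siNT cells, against 34, 52, 47 and 37 of the 108 events tested. After UPF1 knockdown 6 of the 7 events with lower inclusion and all 3 with higher inclusion had a stop codon in frame, against 49 of the 93 tested. The share with a stop codon was not counted over all exons. Of the 7 events 3 were of BUD31, and none of the 7 was called without the siNT/siUPF1 library listed 2nd. The PRPF3 and LSM14B calls passed the read filter only through siSFSWAP/siUPF1 cells. All 108 exons tested between siSFSWAP and siNT cells were bounded by AG and GT. Events of 1 exon share reads, so these counts are not of independent exons.

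Other genes of the same pathways (a list of 48 symbols, some of them older and newer names of 1 gene), among them other proteins of the tri-snRNP, the Prp19 complex and the decapping machinery, were counted for comparison. Of their skipped exon events 17 of 151 were called between siSFSWAP and siNT cells, 5 with higher and 12 with lower inclusion, and 18 of 167 in the UPF1 knockdown background, 10 with higher and 8 with lower inclusion, beside 12.0% and 7.52% of all events. Between siNT/siUPF1 and siNT cells 8 of 126 were called, 5 with higher and 3 with lower inclusion, beside 1.17% of all events. By limma with 0.5 added these 3 counts were 8, 0 and 0. Of their introns 2 of 53 were called in siSFSWAP cells and 1 of 42 in the UPF1 knockdown background, each with lower retention, beside 10.4% and 3.57% of all introns.

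**Figure D4:**
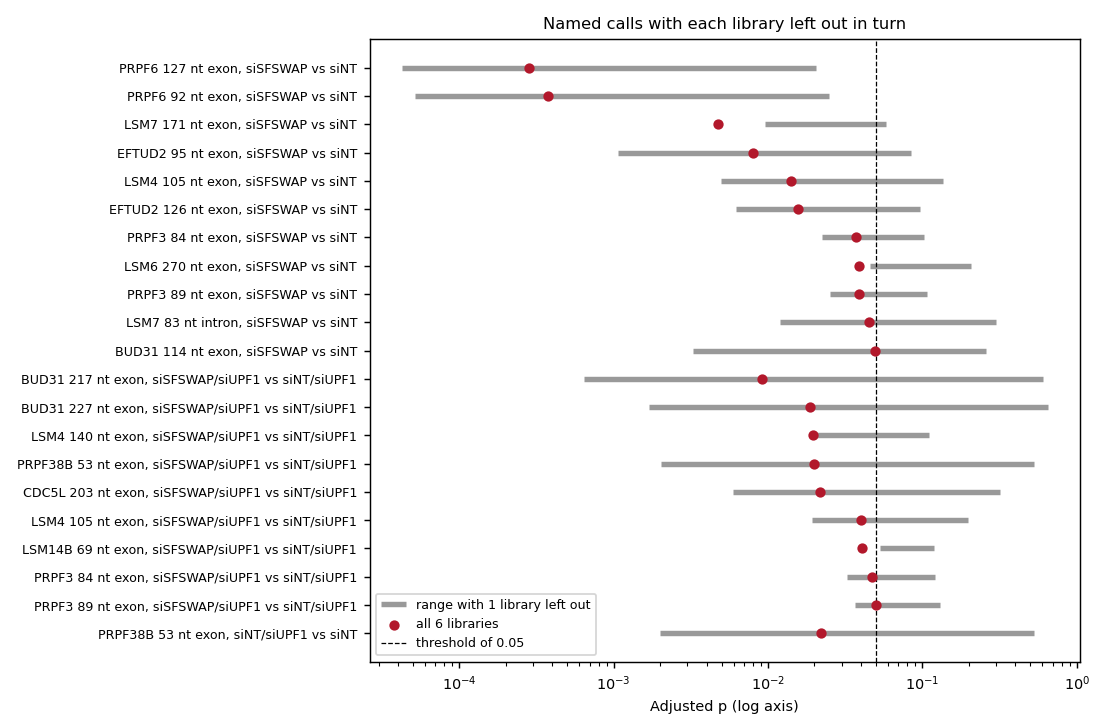
Adjusted p (x axis, log scale) of 21 named calls with all libraries (points), and its range when 1 library is left out in turn (bars), with the threshold of 0.05 as a dashed line. The bars of both PRPF6 forms end below 0.05, and those of all other calls reach past it.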

How the data were processed

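PolyA RNA of 12 libraries was sequenced as single-end 100 bp reads. Per the methods and the submitters' processing notes, the authors used cutadapt 1.9.1 for trimming and STAR 2.7 for alignment (GRCh38.p8, RefSeq annotation extended by putative decoy exons), and ran rMATS separately without and with UPF1 knockdown. The deposited tables hold, per event and library, inclusion and skipping read counts from junctions and exon bodies together. Their p-values, false discovery rates and inclusion levels made by the authors were not used. Reads are listed as siNT first and siSFSWAP second, as the paper defines the difference.

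Events with a mean of 10 reads per library and 10 reads of each form in all were fitted by quasi-binomial regression in R 4.3.3. The Pearson dispersion was moderated over all events of a type with limma 3.58.1 and floored at 1, F tests were adjusted by Benjamini-Hochberg over all events of the type, and 0.05 was the threshold. Each p compares 3 libraries with 3, or all 12 for the difference of effects by a Wald test. Reads of each sum were raised by 0.5 for log2 odds ratios. Comparisons across tables used only events with the same coordinates and effective lengths. The member genes and other lists were chosen with earlier results of these data known. Named were up to 8 exons or introns with the lowest adjusted p per comparison, type and direction, all exons on the study's decoy list, and for each gene without a call its event with the most reads. Alternatives were other read filters, other dispersions, limma on log odds and leaving out each library. The sequence and values of 1 BUD31 exon are not reported here, though counts include it.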

Additional observations from a re-analysis of the deposited data

How the results depend on the processing

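The counts of called events depended on how the spread was modelled. Of 10 member exons between siSFSWAP and siNT cells, 0 were called with no filter on low counts, 0 with the own dispersion of each event, 0 by limma with a pseudocount of 0.5 and 1 by limma with a pseudocount of 1. Of 10 between siSFSWAP/siUPF1 and siNT/siUPF1 cells, of 1 between siNT/siUPF1 and siNT cells, and of 1 retained intron between siSFSWAP and siNT cells, 0 were called under each of these 4 settings. Over all skipped exons the calls were 4052 (115 with no filter, 0 with own dispersion, 1239 and 1611 by limma with 0.5 and 1) between siSFSWAP and siNT cells, 2558 (29, 0, 17 and 276) between siSFSWAP/siUPF1 and siNT/siUPF1 cells, and 332 (19, 0, 0 and 0) between siNT/siUPF1 and siNT cells. Over all retained introns between siSFSWAP and siNT cells they were 610 (4, 0, 0 and 0). The cause was not tested. With no filter both the adjustment and the moderation of the dispersion ran over more events, 114520 in place of 33839 skipped exons between siSFSWAP and siNT cells. The part of each in the loss of calls was not tested.

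Leaving out 1 library in turn gave 4 to 8 member exons between siSFSWAP and siNT cells, 0 to 11 between siSFSWAP/siUPF1 and siNT/siUPF1 cells, 0 to 5 between siNT/siUPF1 and siNT cells, and 0 to 2 introns between siSFSWAP and siNT cells. Of the 22 named calls, 2 held in every such fit, 19 with at least 30 reads per library and 22 with no floor on the dispersion, and none reversed its direction in the 257 fits run. No paired analysis was possible because the tables join the libraries of a group in 1 cell without their replicate numbers. The edgeR alternative was not run, since the joined cells are not count columns. Few reads of 1 form limit the precision, as for PRPF3 exon 5 with 14 skipping reads in siSFSWAP cells and none in siNT cells.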

Other observations

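Among the member events that missed the threshold between siSFSWAP and siNT cells, 4 had an unadjusted p under 0.05 and groups that did not overlap, and they are named here after their values were seen. PRPF18 had a 121 nt exon between exons 1 and 2 (chr10:13591768-13591888, TAA from base 37 on) at 10.1%, 13.9% and 23.9% in siSFSWAP cells, against 3.8%, 8.88% and 7.13% in siNT cells (adjusted p = 0.0745). The intron after exon 11 of PRPF3 (chr1:150344262-150344375, 114 nt) was retained at 44.3%, 37.4% and 52.0% in siSFSWAP cells and at 100%, 78.8% and 100% in siNT cells, on at most 20 reads per library (adjusted p = 0.0618). The same intron stood at 74.6% ± 24.9 in siSFSWAP/siUPF1 cells and 44.2% ± 12.4 in siNT/siUPF1 cells (SD, n = 3 each; adjusted p = 0.716), and the difference between the SFSWAP effects was not called (adjusted p = 0.95). Intron 5 of PLRG1 (chr4:154545924-154546122, 199 nt) was retained at 2.91% ± 0.997 in siSFSWAP cells and 5.55% ± 1.16 in siNT cells (adjusted p = 0.175). The fourth is intron 7 of PRPF38A, described above.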
